A study of Mus musculus with 82 samples.

Results

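Naive CD4 T cells of the inbred mouse strain BTBR T+ tf/J (2 arrays) were compared with those of C57BL/6J (5 arrays). The 7 arrays were chosen by the strain named in their genetic background label, out of 82 arrays of 40 strain groups. The cells came from spleens of male mice that the labels put at 6 weeks of age, and no treatment is given. They were sorted as CD3+, CD4+ and CD62L+, and cells bearing CD8, CD11c, CD25, CD49b, Gr1 or Ter119 were among those left out. RNA for an array came from several pooled mice, and the pools of a strain are given as its biological replicates, so the p-values measure the spread between pools. That spread was estimated over the pools of all strain groups. The log2 differences between the BTBR arrays had an SD of 0.317, against a median of 0.206 over the strain pairs. The p-values may thus understate the spread between BTBR pools. RNA was read on Affymetrix ST1.0 arrays, which give 1 intensity per probe set (a group of short probes for a transcript), and 24922 probe sets were tested. In such bulk samples, fewer cells of a type and less RNA per cell cannot be told apart.

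BTBR T+ tf/J (BTBR below) is an inbred strain used as a model of autism-like behaviour and, with the leptin-null allele, of diabetes, and its immune system is often set against that of C57BL/6J. In the strain's name, T+ marks the normal allele at the tail locus T, and tf the coat mutation tufted. Tufted has been mapped to Itpr3, a calcium channel of the endoplasmic reticulum. Naive CD4 T cells circulate through lymphoid organs, kept alive by IL-7 and by weak signals through the T cell receptor, until antigen turns them into helper or regulatory cells. Among the strains studied here, C57BL/6J is the source of the mouse reference genome.

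Libraries that stand apart bear on every count below. BTBR replicate 2 had a Pearson correlation of 0.973 to 0.978 with the C57BL/6J arrays over all probe sets, against 0.987 to 0.991 for BTBR replicate 1 and 0.988 to 0.997 among the C57BL/6J arrays. Between the BTBR arrays, 329 probe sets were at least 2-fold lower in replicate 2 and 7 at least 2-fold higher, and their correlation (0.988) ranked 4 from the bottom among the 38 strain pairs. C57BL/6J replicate 5 had the highest median intensity of all 82 arrays (142, against 102 to 110.5 in the other C57BL/6J arrays and 114 and 117 in the BTBR arrays). A gene is therefore called a replicate-consistent difference here only if it passed an adjusted p of 0.05 with both BTBR arrays and also with each BTBR array alone, always in the same direction.

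With both BTBR arrays, 3737 probe sets (15.0% of those tested) passed the threshold in limma's test, 972 higher (3.90%) and 2765 lower (11.1%) in BTBR. The arrays of the strains did not overlap for 23.1% of all probe sets. With BTBR replicate 1 alone the number called was 486 (1.95%), and with replicate 2 alone it was 4636. The replicate-consistent differences comprised 424 probe sets (1.70%), of which 125 were higher (0.502%) and 299 lower (1.20%) in BTBR, and 181 differed at least 2-fold. In all 424 the arrays of the strains did not overlap. For such genes, a lack of overlap given below is no further support. Of all calls, 74.0% were lower as deposited, 74.7% with each array centred on its median (703 higher, 2079 lower) and 52.5% after quantile normalization (2148 higher, 2373 lower). Without C57BL/6J replicate 5 the share was 60.3% (1709 higher). Read as 1 probe set per gene, 339 of 19752 genes (1.72%) were replicate-consistent, 104 higher (0.527%) and 235 lower (1.19%). Beside these stand 15.1% of genes called with both arrays, 3.92% higher and 11.2% lower. Counts within gene lists below are to be read beside these shares. The median difference over all 19752 genes was 0.01 on the log2 scale.

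**Figure D1:**
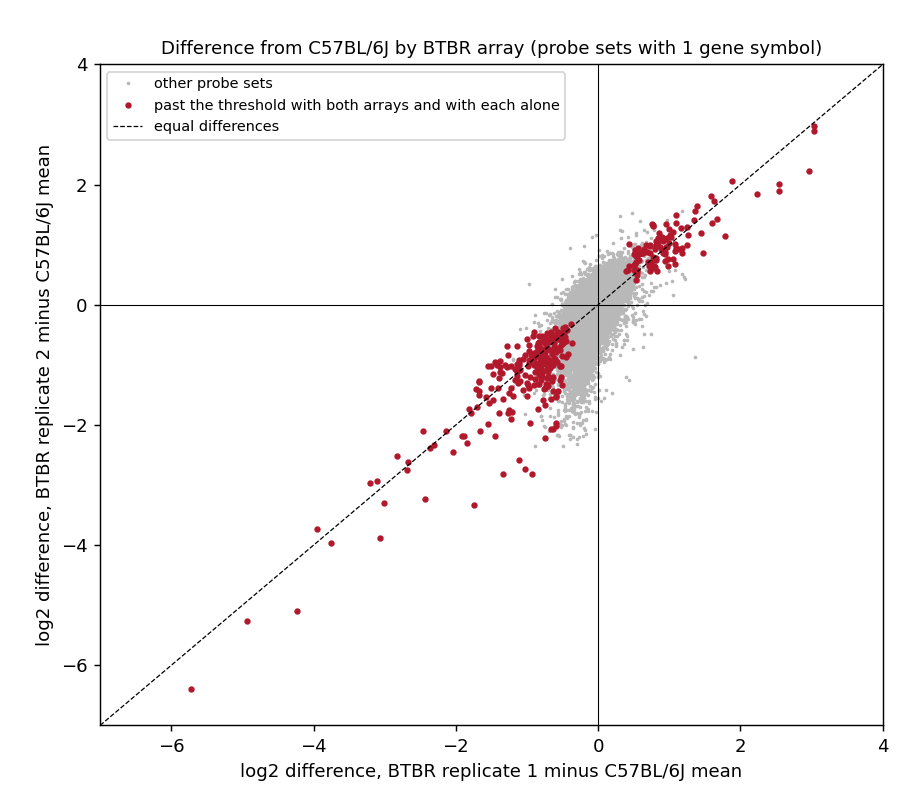
Each point is a probe set with 1 gene symbol; the horizontal axis gives the log2 difference of BTBR replicate 1 from the C57BL/6J mean and the vertical axis that of BTBR replicate 2, and red marks the replicate-consistent differences. The grey cloud is stretched below 0 along the vertical axis, the side on which 329 probe sets were at least 2-fold lower in replicate 2 than in replicate 1, while red points run along the dashed line of equal differences.

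The largest difference of all named genes lay in the Ifi200 family, whose proteins (called PYHIN proteins) sense DNA or regulate transcription and are induced by interferon. Of 9 family members measured, 5 were lower in BTBR and 4 of these were replicate-consistent (Ifi208, Ifi214, Ifi213 and Ifi209). No member was called higher, and the median difference over the 9 was -1.37 with both arrays and -0.57 with replicate 1 alone, against 0.01 and -0.02 over all genes. These 4 genes are neighbours on chromosome 1 in the GRCm38.p6 assembly, and they were the only run of 3 or more neighbouring genes that were all replicate-consistent. Their promoters are shown because the genes differ together. Each window holds 250 bases before and 50 after the gene's start, from RefSeq (GRCm38.p6), and capitals mark GAAA, any 2 bases and GAAA again, the core of the interferon-stimulated response element, searched on both strands with overlapping matches allowed.
Ifi208: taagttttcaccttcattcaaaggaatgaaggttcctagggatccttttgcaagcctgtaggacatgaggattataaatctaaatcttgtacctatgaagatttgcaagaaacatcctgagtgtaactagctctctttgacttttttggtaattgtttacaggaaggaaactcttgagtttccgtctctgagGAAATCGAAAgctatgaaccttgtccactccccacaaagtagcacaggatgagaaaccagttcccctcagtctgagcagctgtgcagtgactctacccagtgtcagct
Ifi209: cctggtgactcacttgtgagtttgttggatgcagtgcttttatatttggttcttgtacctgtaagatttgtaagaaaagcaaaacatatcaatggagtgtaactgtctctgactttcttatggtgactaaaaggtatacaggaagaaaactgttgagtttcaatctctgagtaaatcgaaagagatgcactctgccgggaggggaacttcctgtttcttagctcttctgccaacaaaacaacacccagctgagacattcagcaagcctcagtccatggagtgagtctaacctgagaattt
Ifi213: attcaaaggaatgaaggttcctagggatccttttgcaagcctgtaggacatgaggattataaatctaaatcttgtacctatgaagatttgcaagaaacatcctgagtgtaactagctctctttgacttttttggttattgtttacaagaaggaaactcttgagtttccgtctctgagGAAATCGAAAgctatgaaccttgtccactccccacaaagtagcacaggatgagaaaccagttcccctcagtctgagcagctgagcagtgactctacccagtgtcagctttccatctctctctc
Ifi214: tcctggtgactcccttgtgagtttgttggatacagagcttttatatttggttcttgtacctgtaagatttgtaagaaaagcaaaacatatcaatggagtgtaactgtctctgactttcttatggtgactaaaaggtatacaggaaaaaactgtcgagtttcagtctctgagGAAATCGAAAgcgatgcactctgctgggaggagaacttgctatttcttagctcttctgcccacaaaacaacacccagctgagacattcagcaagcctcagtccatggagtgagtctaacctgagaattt
The windows are chr1:173673415-173673714 (plus strand, Ifi208), chr1:173630609-173630908 (plus strand, Ifi209), chr1:173599223-173599522 (minus strand, Ifi213) and chr1:173535908-173536207 (minus strand, Ifi214). The motif was found once in the windows of Ifi208, Ifi213 and Ifi214 and not in that of Ifi209, and it occurs in 3.44% of 32851 mouse promoter windows of this length. Among windows of replicate-consistent genes, it occurs in 7.69% for genes higher and 7.5% for genes lower in BTBR. A part of the motif in the differences was not tested. The reference windows of Ifi208 and Ifi213 share an unbroken run of 135 bases, and those of Ifi209 and Ifi214 one of 109 bases. These are reference sequences, and no BTBR sequence was examined. Genes of a family this alike may share probes or transcripts, so the values of single members are uncertain.

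Ifi208 had intensities of 28.4 and 17.8 in the BTBR arrays and 1805, 1305, 1825, 1839 and 951 in the C57BL/6J arrays. Every BTBR array was far below every C57BL/6J array, a 66.6-fold difference (log2 difference -6.06, SE 0.22, adjusted p = 1.75e-28). Ifi214 read 70.8 and 38.9 in BTBR and 1252, 1274, 1592, 1273 and 1287 in C57BL/6J, again without overlap (25.4-fold lower; log2 difference -4.66, SE 0.25, adjusted p = 2.84e-21). Both genes were low in few other strains: for Ifi208, 3 of the other 38 strain means were closer to BTBR than to C57BL/6J, and for Ifi214, 6 were. Ifi213, by contrast, read 211 and 261 in BTBR and 1674, 1304, 1428, 1499 and 1589.8 in C57BL/6J (log2 difference -2.67, SE 0.21, adjusted p = 9.95e-15), and 27 of the 38 other strains were closer to the BTBR level. Ifi209 read 1027 and 315 against 2023, 2096, 1989.9, 2093 and 2246 (log2 difference -1.88, SE 0.22, adjusted p = 3.70e-09). Here the BTBR arrays differed from each other more than the C57BL/6J arrays did, with replicate 2 the lower. Ifi203 was past the threshold with both arrays (log2 difference -1.37, SE 0.20, adjusted p = 7.98e-07) but not with replicate 1 alone (difference -0.57, adjusted p = 0.161).

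Similarly low BTBR values were measured for a pair of tripartite-motif genes of the Trim5 and Trim30 cluster, a group of antiviral and signalling proteins. Trim12a read 50.3 and 40.2 in BTBR and 1595, 1462, 1681, 1465 and 1483 in C57BL/6J, a 34.1-fold difference (log2 difference -5.09, SE 0.15, adjusted p = 8.48e-32). Trim30d read 27.3 and 23.5 and 374, 318, 461, 388 and 317 respectively (14.5-fold; log2 difference -3.86, SE 0.19, adjusted p = 1.91e-22). For both genes the C57BL/6J group ranked 39 from the bottom among the 40, and 25 of the 38 other strain means were closer to BTBR. Slfn8, a member of the Schlafen family, read 343 and 124 in BTBR and 867, 775, 905, 854 and 943 in C57BL/6J (log2 difference -2.07, SE 0.20, adjusted p = 1.80e-11). Of the 22 members measured in the list of Trim5 and Trim30 cluster, Ifitm and Schlafen genes, 7 were lower with both arrays, 3 of them replicate-consistent. With replicate 1 alone 3 were lower and 1 higher, and the list's median turned from -0.10 to 0.03.

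Sp140, a chromatin reader of immune cells that limits type I interferon, read 14.04 and 16.3 in BTBR and 272, 198, 209.9, 183 and 236 in C57BL/6J. It was 14.4-fold lower in BTBR (log2 difference -3.84, SE 0.21, adjusted p = 4.91e-21), and no other strain mean came near: the other 38 lay between 119 and 374. A test of the BTBR strain mean against those 38 strain means gave a log2 difference of -3.69 (SE 0.44, adjusted p = 9.18e-07).

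The broader type I interferon list, by contrast, was split. Of 35 genes measured, 4 were higher and 7 lower, and 1 and 2 of these were replicate-consistent; the median was 0.01 (-0.06 with replicate 1 alone). Eif2ak2, which encodes the double-stranded RNA sensor PKR, read 64.2 and 38.5 in BTBR and 166, 166, 212, 171 and 168 in C57BL/6J (3.54-fold lower; log2 difference -1.82, SE 0.18, adjusted p = 2.39e-11). 26 of the 38 other strains were closer to the BTBR level. Oasl1, an interferon-induced relative of the oligoadenylate synthetases, was lower by a small margin, at 215 and 234 against 268, 323, 354, 299 and 359.8 (log2 difference -0.51, SE 0.12, adjusted p = 0.00117), and missed the threshold when the 7 arrays were fitted alone (adjusted p = 0.0889) or with array weights (adjusted p = 0.0555). Xaf1, a pro-apoptotic interferon target, was higher, at 779.7 and 759 in BTBR against 471, 416, 509, 488 and 443 (log2 difference 0.73, SE 0.14, adjusted p = 0.000111). Ifi44l, an interferon-induced gene not counted in this list, was 2.78-fold higher, at 151 and 128 against 45.7, 51.7, 44.6, 47.9 and 61.2 (log2 difference 1.48, SE 0.14, adjusted p = 1.51e-11). The arrays of the strains did not overlap for any of these 4 genes.

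Guanylate-binding proteins attack the vacuoles of intracellular microbes. Gbp2b, also known as Gbp1 in mice, read 343 and 236 in BTBR and 51.4, 58.3, 51.4, 59.4 and 75.99 in C57BL/6J, 4.85-fold higher (log2 difference 2.28, SE 0.12, adjusted p = 1.93e-21). BTBR shared this high level with a minority of strains, since 11 of the other 38 were closer to BTBR. Irgc1, an immunity-related GTPase, read 192 and 192 and 90.1, 98.2, 94.6, 91.1 and 122 (log2 difference 0.96, SE 0.14, adjusted p = 7.07e-07). Over the 11 genes of this list, 3 were higher and 1 lower, with both replicate-consistent genes being Gbp2b and Irgc1. With replicate 1 alone 3 were higher and 0 lower, and the list's median turned from -0.15 to 0.28.

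**Figure D2:**
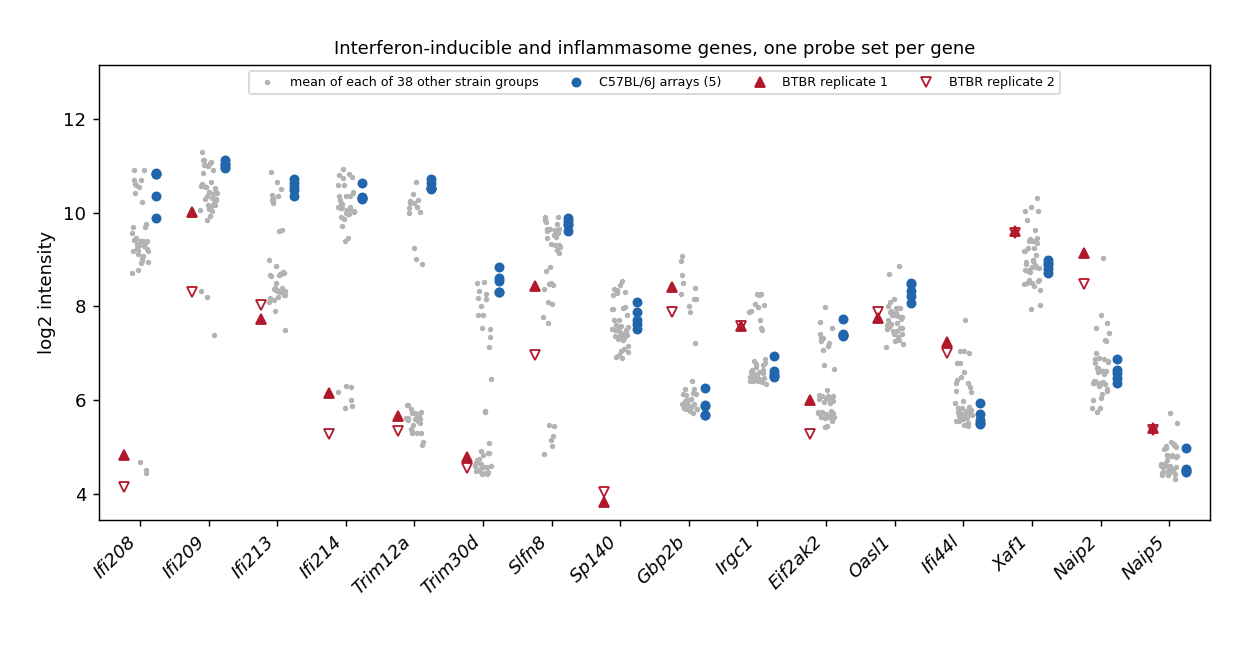
Log2 intensity (vertical axis) of interferon-related, GTPase and inflammasome genes: red triangles are the BTBR replicates, blue circles the 5 C57BL/6J arrays and grey points the means of the other 38 strain groups. Sp140 in BTBR lies below every other point of its column, whereas for Trim12a BTBR lies in the lower of the visible groups of strains together with 25 others.

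Both genes of the Naip family that passed the threshold were higher in BTBR. Naip2, which detects bacterial secretion-system proteins and activates the NLRC4 inflammasome, read 559 and 355 in BTBR and 88.4, 95.5, 81.9, 99.9 and 117 in C57BL/6J (4.65-fold; log2 difference 2.22, SE 0.16, adjusted p = 1.36e-15). Only 2 of the other 38 strain means were closer to BTBR than to C57BL/6J. Naip5, the flagellin sensor, read 42.2 and 41.1 against 22.6, 22.3, 23.1, 22.2 and 31.4 (log2 difference 0.79, SE 0.17, adjusted p = 0.000703), all values below the median intensity over all probe sets of 113. These were the 2 replicate-consistent genes of 23 measured in the inflammasome and Nod-like receptor list. Of 21 Toll-like receptor and adaptor genes, both called genes were lower and replicate-consistent: Tlr7, the endosomal sensor of single-stranded RNA (102 and 73.9 against 179, 162, 205, 187 and 190.3; log2 difference -1.08, SE 0.17, adjusted p = 3.57e-06), and Irak3, an inhibitor of this signalling (130.4 and 122 against 204, 258, 279.8, 189 and 213; log2 difference -0.84, SE 0.15, adjusted p = 4.50e-05). C57BL/6J had the highest mean of all 40 groups for both.

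Ctse, which encodes the endosomal protease cathepsin E, had the largest difference among the named genes that were higher, at 5588 and 5367 in BTBR and 853, 577, 618, 720.0 and 673 in C57BL/6J (8.03-fold; log2 difference 3.01, SE 0.12, adjusted p = 8.32e-26). It was a difference of C57BL/6J and a minority of strains from the rest: the median of the other 38 strains was 5199, and 26 of them were closer to BTBR. Cd7, an immunoglobulin-family receptor of T cells, read 3806 and 4551 against 1509, 1315, 1441, 1605 and 1410.2 (2.86-fold higher; log2 difference 1.52, SE 0.12, adjusted p = 8.57e-15). The median of the other strains was 1759.7, and 11 of 38 were closer to BTBR.

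Of 16 genes of the T cell receptor complex and its coreceptors, 1 was higher and 4 lower, and Cd3g alone was replicate-consistent. Among all genes, 3.92% were higher, 11.2% lower and 1.72% replicate-consistent. Cd3g, a signalling chain of the complex, read 4079.8 and 4092 in BTBR and 5842, 6025, 6035, 5979 and 6129 in C57BL/6J, without overlap (log2 difference -0.55, SE 0.10, adjusted p = 2.44e-05). The variable gene segment Trav12-2 read 17.4 and 20.5 against 208, 98.5, 172, 175 and 168 (log2 difference -3.08, SE 0.19, adjusted p = 2.54e-18), and 33 of 38 other strains were closer to BTBR; segments of this family are near-identical copies, so the value is uncertain. In the list of 36 receptor signalling genes, 15 were lower and 2 higher with both arrays. Only Ubash3b, a phosphatase that restrains receptor signalling, was replicate-consistent (269 and 267 against 411, 376, 390.3, 412 and 386; log2 difference -0.56, SE 0.10, adjusted p = 7.40e-05). The list median moved from -0.20 with both arrays to -0.08 with replicate 1 alone. Themis, a signalling protein of thymocyte selection, shows the dependence: its difference was -0.42 with replicate 1 (adjusted p = 0.0781) and -1.48 with replicate 2.

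Of 22 genes of the naive T cell list, 10 were lower and 3 higher, and Il7r, Als2cl and Dapl1 were replicate-consistent, all lower. Il7r, the receptor for the survival cytokine IL-7, read 3936 and 2451 in BTBR and 5636, 5627, 5607, 5559.8 and 5700.4 in C57BL/6J (log2 difference -0.86, SE 0.11, adjusted p = 1.33e-07). The C57BL/6J values span a narrow range and both BTBR values lie below it, replicate 2 by more. Dapl1, a gene highly expressed in naive T cells, read 4585 and 4153 against 6758, 6533, 5868, 6804 and 6999 (log2 difference -0.59, SE 0.11, adjusted p = 9.80e-05). Als2cl read 601 and 698 against 890.4, 1048, 1205, 991 and 939 (log2 difference -0.64, SE 0.12, adjusted p = 0.000159), but a second Als2cl probe set did not pass (difference -0.40, adjusted p = 0.123).

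Genes of activated and memory cells went both ways. Cd44, the hyaluronan receptor that rises on memory T cells, read 145 and 113 in BTBR and 311, 294, 305, 316 and 283 in C57BL/6J. Its BTBR mean was the lowest of all 40 groups, 2.35-fold below C57BL/6J (log2 difference -1.24, SE 0.09, adjusted p = 1.36e-15). The lowest rank rests on replicate 2, since replicate 1 (145) lay above the lowest of the other strain means (133, MRL/MpJ). Cd69, an early activation marker that holds cells in tissue, was also lower, at 875 and 793 against 1273, 1351, 1239, 1446 and 1196 (log2 difference -0.64, SE 0.12, adjusted p = 7.70e-05). In the other direction, Il2rb, the beta chain of the IL-2 and IL-15 receptors, read 710.2 and 792 against 292, 458, 313, 344 and 326 (2.19-fold higher; log2 difference 1.13, SE 0.18, adjusted p = 5.30e-06). Id2, an inhibitor of E-protein transcription factors that rises in effector cells, read 2560.2 and 2181 against 1219, 1067, 1043, 1051 and 1289 (log2 difference 1.06, SE 0.15, adjusted p = 5.76e-07); here the C57BL/6J mean was among the lowest of the 40 groups (rank 3 from the bottom) and 30 of 38 others were closer to BTBR. Of the list's 36 genes, 8 were higher and 5 lower, with these 4 replicate-consistent, and the median was 0.01 (-0.04 with replicate 1 alone). Beside these stand 3.92% of all genes higher, 11.2% lower and 1.72% replicate-consistent.

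Regulatory T cell genes were more often higher than lower, although CD25+ cells, which include most regulatory T cells, had been sorted out. Of 19 measured, 8 were higher and 1 lower with both arrays, and the list's median was 0.43 (0.48 with replicate 1 alone). Over all genes, 3.92% were higher and 11.2% lower, with a median of 0.01 (-0.02 with replicate 1 alone). Gpr83, an orphan receptor of regulatory T cells, read 928 and 784 in BTBR and 297, 381, 312, 350.1 and 371 in C57BL/6J (2.5-fold higher; log2 difference 1.32, SE 0.15, adjusted p = 1.40e-09). Foxp3, the lineage's defining transcription factor, read 795 and 743 against 370.0, 549.7, 430.4, 491 and 475, without overlap (log2 difference 0.74, SE 0.17, adjusted p = 0.00165). With replicate 1 alone the size was similar (0.79) but missed the threshold (adjusted p = 0.0562), as it did with array weights (adjusted p = 0.0540). The member that was lower was Nt5e (CD73), described with the adenosine genes. The replicate-consistent members that were higher were Gpr83 and Il2rb.

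Of the T helper 1 and 2 lists, 11.1% and 4.76% were replicate-consistent, against 1.72% of all genes (0.527% higher, 1.19% lower). The replicate-consistent genes were lower in BTBR, and are too few to speak for a list. Of 18 T helper 1 genes, these were Il18r1, the IL-18 receptor (321 and 182 against 518, 610.4, 544, 529 and 540.0; log2 difference -1.18, SE 0.15, adjusted p = 5.78e-08), and Stat4, the transducer of IL-12 signals (1601 and 1135 against 2341, 2265, 2238, 2088 and 2655; log2 difference -0.78, SE 0.11, adjusted p = 2.28e-07). Of 21 T helper 2 genes, it was Epas1, a hypoxia-inducible factor (132 and 151 against 285, 277, 299.6, 316 and 252; log2 difference -1.02, SE 0.11, adjusted p = 1.28e-09). Of 16 T helper 17 genes there was none, and 1 higher and 3 lower with both arrays. The defining genes did not pass: Tbx21 (difference 0.37, adjusted p = 0.083), Gata3 (-0.19, adjusted p = 0.285), Ifng (0.04, adjusted p = 0.895) and Il4 (-0.29, adjusted p = 0.147). After quantile normalization Tbx21 (adjusted p = 0.0474) and Il4 (adjusted p = 0.0421) passed, as did Il4 with BTBR replicate 2 alone (adjusted p = 0.0409) and Tbx21 without C57BL/6J replicate 5 (adjusted p = 0.0392).

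Among 32 costimulatory and checkpoint receptors, 5 were higher and 7 lower, and 1 and 2 were replicate-consistent. The shares over all genes were 3.92% higher and 11.2% lower, and 0.527% and 1.19% replicate-consistent. Tnfrsf14 (HVEM), the partner of BTLA and LIGHT, read 2424 and 2187 in BTBR and 1109.9, 1108, 1129.5, 1098 and 1236 in C57BL/6J (2.03-fold higher; log2 difference 1.02, SE 0.11, adjusted p = 1.61e-10). Cd226 (DNAM-1), an activating receptor, read 514 and 276 against 989, 868, 985, 916 and 851 (log2 difference -1.29, SE 0.15, adjusted p = 8.87e-09). Its BTBR mean was the lowest of the 40 groups, but replicate 1 lay above the mean of the DBA2-titled group. The log2 difference of BTBR from the other strains was -0.88 with both arrays and -0.43 with replicate 1 alone. Cd86, a ligand of CD28, read 68.6 and 55.8 against 117, 158, 122, 142 and 150.2 (log2 difference -1.15, SE 0.16, adjusted p = 6.12e-07). Klrd1 (CD94), a partner of NKG2 receptors, was 4.08-fold lower, at 88.9 and 72.1 against 362, 280.5, 346, 302 and 350.3 (log2 difference -2.03, SE 0.19, adjusted p = 1.02e-11). The non-classical class I gene H2-T10 was higher, at 1023 and 1109 against 478, 425, 475, 401 and 510.5 (log2 difference 1.22, SE 0.16, adjusted p = 6.14e-08), the highest mean of all groups; class I genes are near-identical copies, and its value is uncertain.

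**Figure D3:**
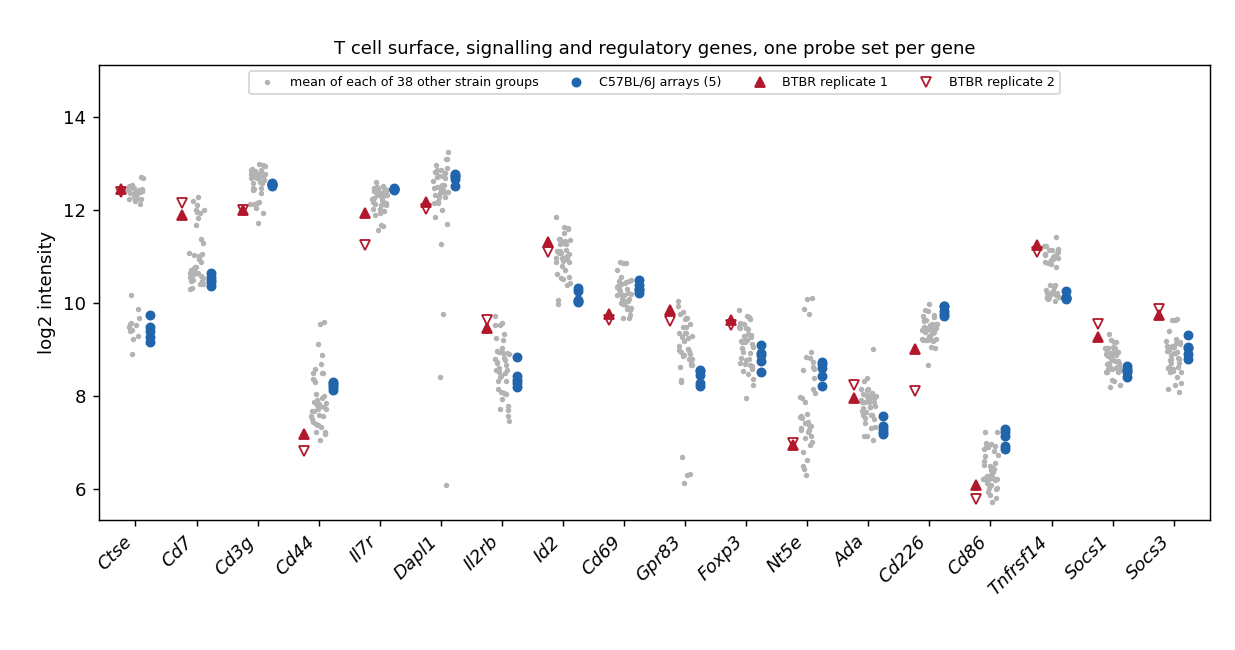
Log2 intensity (vertical axis) of T cell genes: red triangles are the BTBR replicates, blue circles the 5 C57BL/6J arrays and grey points the means of the other 38 strain groups. BTBR lies near the bottom of the Cd44 column and near the top of the Socs1 and Socs3 columns, while for Ctse it lies in the upper group of strains and C57BL/6J in the lower.

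Extracellular adenosine, made from ATP by ectonucleotidases, restrains T cells. Nt5e, the enzyme that makes adenosine from AMP, read 125 and 128 in BTBR and 346, 417, 297, 393 and 424 in C57BL/6J, 2.94-fold lower (log2 difference -1.56, SE 0.16, adjusted p = 1.81e-10). Ada, adenosine deaminase, which removes adenosine, read 251 and 301 against 165, 146, 191, 150.0 and 158 (1.7-fold higher; log2 difference 0.77, SE 0.11, adjusted p = 6.90e-07). Entpd4, a nucleotide phosphatase of the Golgi and lysosomes, read 656 and 656 against 995, 1109, 1126, 1125 and 1111 (log2 difference -0.74, SE 0.11, adjusted p = 1.53e-06). These were the replicate-consistent genes of 20 measured, in which 3 were higher and 2 lower with both arrays. The C57BL/6J mean was the highest of the 40 groups for Entpd4 and ranked 5 from the bottom for Ada, and 35 and 25 of the 38 other strains were closer to BTBR.

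In the list of 40 insulin, leptin and mTOR signalling genes, 6 were higher and 6 lower, beside 3.92% and 11.2% of all genes. The replicate-consistent pair, both higher, were inhibitors of cytokine and insulin signalling. Socs1 read 618 and 751 in BTBR and 341, 403, 381, 384 and 366 in C57BL/6J (log2 difference 0.86, SE 0.14, adjusted p = 6.62e-06), and Socs3 read 865 and 945 against 483, 524, 529.7, 447 and 637 (log2 difference 0.80, SE 0.16, adjusted p = 0.000214). BTBR had the highest mean of all 40 groups for both. A second Socs3 probe set differed by 0.43 (adjusted p = 0.0329) with both arrays and did not pass with replicate 1 alone (adjusted p = 0.694). Insr, the insulin receptor, read 406 and 295 against 492, 463, 475, 479 and 527 (log2 difference -0.49, SE 0.15, adjusted p = 0.0189); it missed the threshold with replicate 1 alone (adjusted p = 0.843) and with each array centred on its median (adjusted p = 0.0515). Lepr, the leptin receptor, was near the lowest intensities on the array in both strains (16.6 and 17.1 against 15.3 to 21.2).

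Among genes of fuel use, single members differed by large factors while the list medians were small. Pdk1, the kinase that holds pyruvate dehydrogenase inactive, read 222 and 214 in BTBR and 1678, 1382, 1525, 1119.8 and 1543 in C57BL/6J, 6.58-fold lower (log2 difference -2.72, SE 0.14, adjusted p = 2.03e-21). Acadl, the long-chain acyl-CoA dehydrogenase of fatty acid oxidation, read 48.7 and 50.7 against 351, 279.7, 365, 286 and 285 (6.26-fold lower; log2 difference -2.65, SE 0.18, adjusted p = 2.59e-17). C57BL/6J had the highest mean of all 40 groups for both, and for Acadl 31 of the other 38 strains were closer to BTBR. They were the only replicate-consistent members of the glycolysis list (24 measured, 5 higher and 2 lower with both arrays, median 0.16, or 0.08 with replicate 1 alone) and of the sterol and fatty acid list (36 measured, 2 higher and 6 lower, median 0.03, or -0.06 with replicate 1 alone). Of 48 oxidative phosphorylation genes 2 were higher and 1 lower, of 34 ribosomal protein genes 1 and 1, and none of either list was replicate-consistent, beside 1.72% of all genes.

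Asns, asparagine synthetase, read 254 and 194 in BTBR and 50.1, 53.4, 50.5, 63.96 and 53.7 in C57BL/6J (4.1-fold higher; log2 difference 2.04, SE 0.16, adjusted p = 3.08e-14). Slc41a3, a magnesium transporter, read 1360.4 and 1549 against 344, 382, 407, 352 and 371 (3.92-fold higher; log2 difference 1.97, SE 0.11, adjusted p = 8.03e-21), with the highest mean of all groups in BTBR. Arrdc4, an arrestin-like regulator of glucose uptake, read 223 and 239 against 71.8, 70.2, 65.9, 66.4 and 88.6 (log2 difference 1.68, SE 0.14, adjusted p = 7.37e-14). Lack of overlap between the strains was a condition for choosing these genes, so it adds no support. Several lysosomal or peptidase genes differed as well. Scpep1, a serine carboxypeptidase, was 3.26-fold higher (233 and 273 against 72.7, 87.99, 90.01, 63.2 and 76.6; log2 difference 1.70, SE 0.14, adjusted p = 1.26e-13). Cpm, a membrane carboxypeptidase, was 8.13-fold lower (93.1 and 105 against 845, 773, 746, 903 and 765; log2 difference -3.02, SE 0.14, adjusted p = 2.46e-23). Rnpep, an aminopeptidase, was 4.98-fold lower (80.8 and 79.7 against 405, 374, 468, 413 and 349; log2 difference -2.32, SE 0.13, adjusted p = 6.54e-21). Arsb, the lysosomal arylsulfatase B, was 4.35-fold lower (142 and 146 against 647, 682, 627, 609.7 and 564; log2 difference -2.12, SE 0.13, adjusted p = 5.19e-19), and a second probe set for it differed by -1.58. For Scpep1, Cpm, Rnpep and Arsb at least 30 of the 38 other strains were closer to BTBR than to C57BL/6J.

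Detoxification genes gave 3 replicate-consistent calls among 45 (6.67%), beside 1.72% of all genes. Ephx1, microsomal epoxide hydrolase, was higher (1469.8 and 1786 against 904, 1028, 979.5, 896 and 885; log2 difference 0.79, SE 0.13, adjusted p = 9.24e-06) and had the highest mean of all 40 groups in BTBR. Mgst2, a microsomal glutathione transferase, was lower (254 and 381 against 585, 573, 658, 616 and 647; log2 difference -0.98, SE 0.16, adjusted p = 5.83e-06), as was Gstt2 (152 and 154 against 214, 200.1, 221, 197 and 233; log2 difference -0.47, SE 0.10, adjusted p = 0.000653), which missed the threshold in the 7 arrays fitted alone (adjusted p = 0.0671). Among 27 genes of calcium release and entry, Ryr2, a ryanodine receptor, was higher (131 and 106 against 57.4, 58.4, 51.3, 58.9 and 66.5; log2 difference 1.02, SE 0.10, adjusted p = 7.90e-12) and Ppp3ca, the catalytic subunit of calcineurin, lower (425 and 278 against 632, 687, 739, 612 and 674; log2 difference -0.96, SE 0.13, adjusted p = 3.98e-07). Pttg1, securin, was the replicate-consistent member of 38 cell cycle genes, 2.23-fold lower (188 and 223 against 509, 423, 462, 438 and 458; log2 difference -1.16, SE 0.10, adjusted p = 1.07e-12), and 35 of 38 other strains were closer to BTBR. Kcnma1, a potassium channel, was 7.82-fold higher on the probe set with the highest mean (173 and 156 against 20.2, 25.6, 20.7, 16.9 and 22.9; log2 difference 2.97, SE 0.21, adjusted p = 1.43e-16). A second Kcnma1 probe set did not pass (difference 0.10, adjusted p = 0.716), so the difference depends on the probe set read.

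The 20 largest differences in each direction also included the following. Higher in BTBR were Pstpip2, which restrains autoinflammation (213 and 181 against 66.7, 63.99, 61.8, 65.8 and 78.7), and Pmepa1, an inhibitor of TGF-beta signalling (885 and 907 against 350.0, 336, 368, 399 and 407), both with the highest mean of the 40 groups in BTBR. Echdc2 (2.76-fold), Tns4 (2.76-fold), Atp9a (2.45-fold) and the oxygen sensor Egln3 (2.33-fold) were higher too. Lower in BTBR were Zfp935 (5.81-fold), Lypd6b (5.2-fold), the vesicle-traffic GTPase Rab6b (4.85-fold), Raver2 (4.2-fold) and the chitinase-like Chil5 (72.2 and 59.7 against 274, 287, 276, 257 and 262). Zfp935 was lowest of the 40 groups in BTBR, but its BTBR arrays stood apart (120.4 and 40.4, against 433, 377, 405, 378 and 437). Replicate 1 of BTBR lay above the lowest of the other strain means (117.5, LP/J). All 40 of the largest differences were replicate-consistent. Among stress and survival genes, Klf6 (log2 difference -0.90, SE 0.15, adjusted p = 2.43e-05) and Traf1 (log2 difference -0.60, SE 0.12, adjusted p = 0.000391) were lower and the phosphatase Dusp10 was higher (log2 difference 0.48, SE 0.08, adjusted p = 6.69e-06; 0.0675 in the 7 arrays fitted alone).

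**Figure D4:**
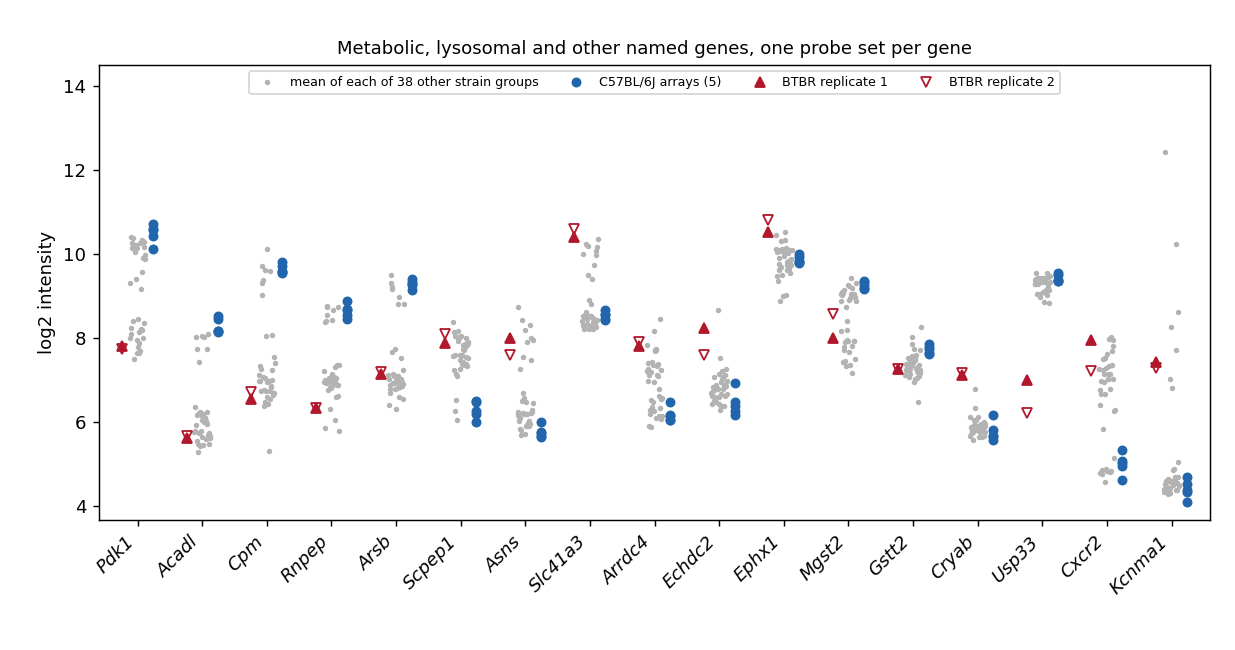
Log2 intensity (vertical axis) of metabolic, lysosomal and other named genes: red triangles are the BTBR replicates, blue circles the 5 C57BL/6J arrays and grey points the means of the other 38 strain groups. All C57BL/6J arrays lie above every other strain mean for Acadl, and BTBR lies below every strain mean for Usp33.

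Genes of alleles described in one or the other strain were examined in all arrays, and none of the 6 measured passed the threshold in limma's test, nor an unadjusted p of 0.05 (count 0), nor the threshold with array weights (count 0). Itpr3, the tufted gene, read 809 and 927 in BTBR and 783, 883, 975, 872 and 876 in C57BL/6J (log2 difference -0.02, SE 0.08, adjusted p = 0.939), with overlap. Disc1, in which BTBR carries a deletion, read 161 and 149 against 131, 133, 126, 144 and 224 (log2 difference 0.07, SE 0.12, adjusted p = 0.796), and Draxin, which guides axons, read 131 and 143 against 114, 124, 98.9, 123 and 174 (log2 difference 0.14, SE 0.15, adjusted p = 0.64). Kmo of the kynurenine pathway read 34.6 and 28.2 against 23.8, 23.7, 21.5, 20.6 and 35.9 (log2 difference 0.35, SE 0.22, adjusted p = 0.335), and none of the 16 genes of that pathway passed (0 also at an unadjusted p under 0.05 and with array weights). Nnt, the mitochondrial transhydrogenase of which C57BL/6J carries an exon deletion, read 395 and 323 against 315, 332, 347, 348 and 331 (log2 difference 0.09, SE 0.09, adjusted p = 0.591); it passed after quantile normalization (difference 0.23, adjusted p = 0.0223). A probe outside a deleted part does not test the allele, and the probes' positions were not used here.

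Some lists had calls and few or no replicate-consistent ones, beside 15.1% of all genes called and 1.72% replicate-consistent. At that share, lists this short would often hold no replicate-consistent gene. Of 8 Gimap GTPases, which sustain lymphocyte survival, 5 were lower, and Gimap5 read 509 and 364 against 678, 672, 749, 645 and 696 (-0.43 with replicate 1 alone, adjusted p = 0.0701). Of 20 class I and antigen processing genes 7 were higher and 2 lower, and H2-T10 alone was replicate-consistent. Psmb9, an immunoproteasome subunit, had a difference of 0.46 (adjusted p = 0.0207), and missed the threshold with each array centred on its median (adjusted p = 0.0604). Of 9 class II genes 2 were higher, of 10 Slam family genes 3 were lower, and of 16 complement genes 2 were lower. Of 4 sex-linked genes 3 were lower and none was replicate-consistent. Their median was -0.60 with both arrays and -0.12 with replicate 1 alone. Over all 38 lists, which hold 865 measured genes, 212 were called with both arrays and 51 (5.90%) were replicate-consistent, 16 higher and 35 lower.

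**Figure D5:**
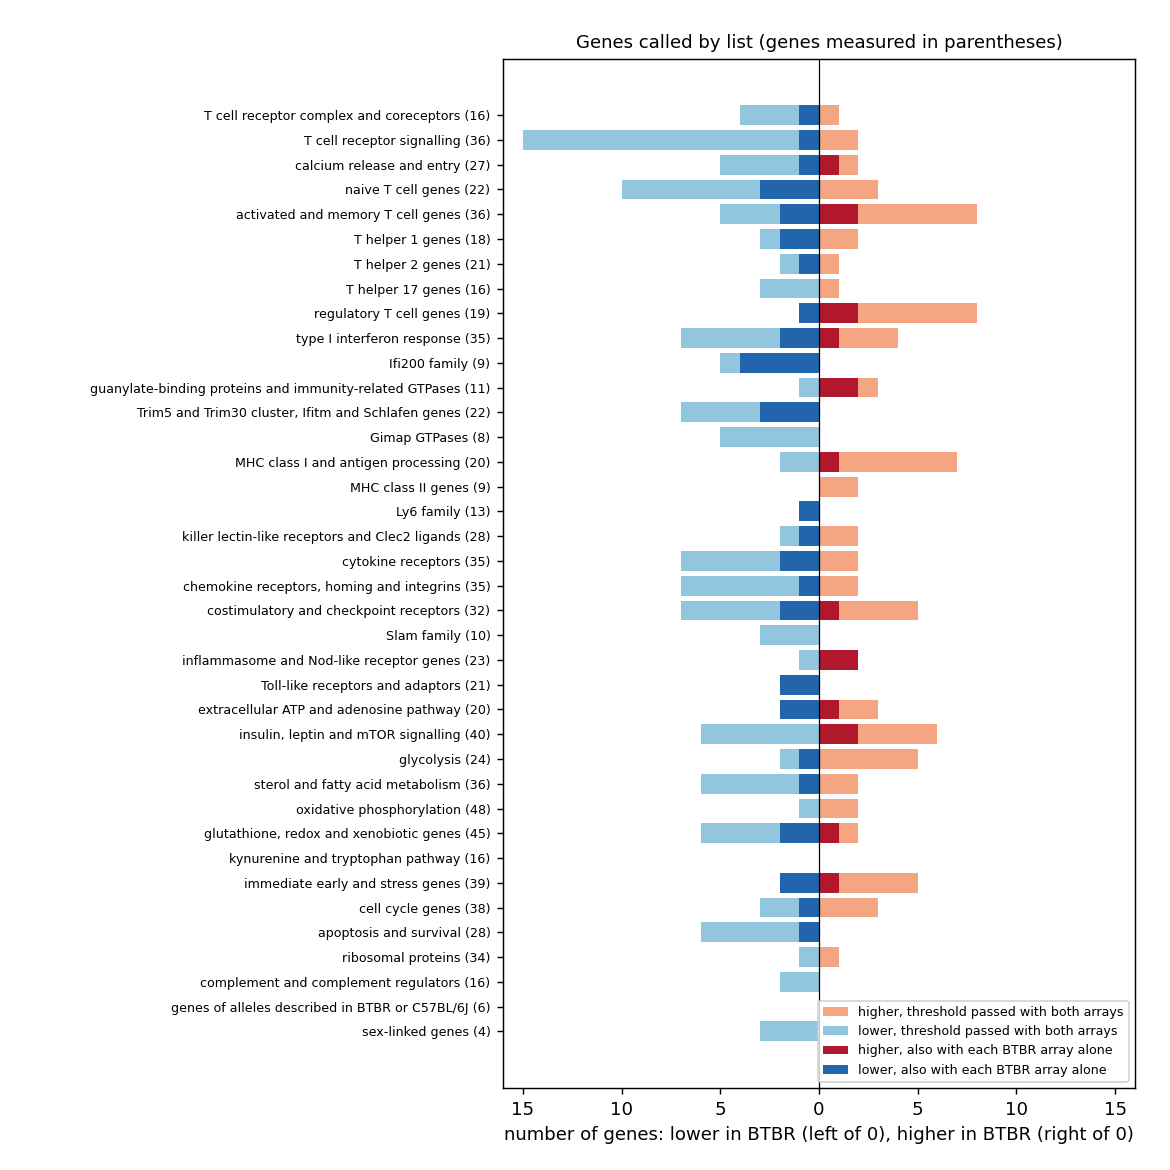
Number of genes in each list past the threshold, with genes lower in BTBR to the left of 0 and higher to the right; pale bars count calls with both BTBR arrays and dark bars the replicate-consistent ones. The pale bar of receptor signalling genes reaches 15 to the left while its dark bar holds 1 gene, and the Ifi200 family keeps 4 of 5.

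Markers of the cells that the sort should leave out were measured by summing the intensities of each fixed list. The 8 T cell markers were all above the median intensity of all probe sets in both strains, and summed to 27333 and 28286 in the BTBR arrays and 30259 to 31307 in the C57BL/6J arrays. The 18 B cell markers summed to 4020 and 4290 in BTBR and 3612 to 4249 in C57BL/6J, with none called by limma (1 at an unadjusted p under 0.05). The 22 myeloid markers summed to 2715 and 2625 against 2936 to 3454, and the 9 CD8 T cell markers to 1298 and 1331 against 1579 to 1788. Among the CD8 T cell markers Klrd1 (replicate-consistent) and Cd8b1 (-0.33, adjusted p = 0.0417) were lower and Nkg7 was higher (0.73, adjusted p = 0.034). Without Klrd1 the sums were 1209 and 1259 against 1253 to 1438, with overlap. The 12 NK cell markers (937 and 993 against 827 to 1028), 6 erythroid, 8 platelet and 13 dendritic cell markers held no replicate-consistent gene. With 1.72% of all genes replicate-consistent, lists this short would often hold none. Among the dendritic cell markers, limma with both arrays called Ccr9 lower (-0.85, adjusted p = 0.000965) and Irf8 higher (0.42, adjusted p = 0.0410). Of the myeloid markers, Cebpb was higher (0.50, adjusted p = 0.0253) and not replicate-consistent, and Ms4a6c was lower (547 and 405 against 999, 1004, 1049.8, 1083 and 995; log2 difference -1.12, SE 0.13, adjusted p = 1.49e-09). Without Ms4a6c the myeloid sums were 2169 and 2220.1 against 1937 to 2459, with overlap. The 14 neutrophil markers summed to 1023 and 928 against 651 to 959, and the only one called was Cxcr2, a chemokine receptor. Cxcr2 read 248 and 149 in BTBR and 39.9, 32.4, 24.3, 33.6 and 30.8 in C57BL/6J (6.04-fold higher; log2 difference 2.59, SE 0.20, adjusted p = 2.95e-15), and 26 of 38 other strains were closer to BTBR. The part of other cells in the differences above was not tested.

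To see which strain was unusual, the mean of each was set against the other 38 strain groups, with the strain as replicate. Of the 339 replicate-consistent genes, 198 had more of the other strains on the C57BL/6J side, 136 had more on the BTBR side, and for 71 the BTBR mean was the highest or lowest of all 40 groups. These genes were chosen for a BTBR difference from C57BL/6J, which favours extreme ranks. The count of extreme ranks over all genes was not taken, so the 71 do not show which strain was unusual. The BTBR mean differed from the other strains for 32 probe sets (0.128%), 4 higher and 28 lower. With replicate 1 alone it differed for 13, and 12 were shared with the 32. Of these 12, 7 carried several gene symbols and are not named, and 5 carried 1 symbol: Sp140 and Usp33 (lower) and Cryab, Zfp951 and Capn11 (higher). Usp33, a deubiquitinase, read 128 and 73.6 in BTBR and 747, 668, 659.7, 653 and 725 in C57BL/6J, and the other 38 strains lay between 458 and 745 (log2 difference from those strains -2.67, SE 0.18, adjusted p = 1.69e-14). Cryab, a small heat shock protein, read 138 and 144 against 55.8, 50.3, 46.98, 50.7 and 71.2, with 47.7 to 111 in the others (log2 difference 1.25, SE 0.21, adjusted p = 0.000889). Zfp951, a zinc finger gene, read 202 and 127 in BTBR and 227, 150.3, 82.7, 114 and 95.5 in C57BL/6J, and both strain means were above nearly all others: it differed from the other strains (log2 difference 1.38, adjusted p = 0.000889) but not from C57BL/6J (adjusted p = 0.213, or 0.00628 without C57BL/6J replicate 1). Capn11, a calpain, differed by 0.46 (SE 0.10, adjusted p = 0.0418).

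The C57BL/6J mean differed from the other strains for 2 probe sets (0.00803%), both higher. Of these, 1 carried no gene symbol and the other was Rell1, a relative of the RELT receptor, at 218, 249, 281, 208 and 305 in C57BL/6J and 141 and 124 in BTBR (log2 difference from the other strains 0.90, SE 0.15, adjusted p = 0.0104). All 38 other strain means of Rell1 were closer to BTBR, which was 1.89-fold lower than C57BL/6J (log2 difference -0.92, SE 0.11, adjusted p = 8.47e-09).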

How the data were processed

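Per the submitters' processing notes, the authors used Affymetrix Power Tools and RMA, and deposited linear normalized intensities; their versions and the genome build are not given in the sources used here. Each deposited intensity was used as its log2, unfiltered. A total of 21425 probe sets had 1 gene symbol in the platform annotation, 1399 had several and 2098 had none; the probe set with the highest mean over all arrays stood for its gene. The members and gene lists were chosen with earlier results of these data known.

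limma 3.58.1 (R 4.3.3) was fitted with 1 coefficient per strain group to all 82 arrays (42 residual degrees of freedom, 8.09 from the prior), and Benjamini-Hochberg adjustment ran over all 24922 probe sets. Named genes were the 20 largest differences each way, up to 6 list members each way, those of the strain-mean tests, runs of 3 or more neighbouring called genes (of 140, the text names the 1 that was replicate-consistent throughout) and a fixed set (Itpr3, Disc1, Draxin, Kmo, Nnt, Cd44, Il4, Ifng, Gata3, Tbx21, Foxp3, Insr, Lepr). The 20 largest each way had to have an established name and no overlap between the arrays of the strains. The higher of the group means also had to exceed the median of all log2 values. The requirement that each BTBR array alone pass was added after the data were seen. The script was tested on simulated data. The arrays' number limits the precision. Whether strain differences in sequence under the probes move a value was not tested. The series text gives another age than the labels' 6 weeks and names bone marrow granulocytes as the cells; the labels were followed.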

Additional observations from a re-analysis of the deposited data

Results flagged for a closer look

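Within the 5 C57BL/6J arrays, 17 of 115 values examined (named genes, the array median and marker sums) had a single array set apart from the other 4 by Dixon's criterion, which chance meets in about 5% of groups. In 12 of the 17 the array was replicate 5, whose median intensity was 142 against 102 to 110.5 in the others. It was also the highest for the summed myeloid (3454 against 2936 to 3073), NK cell (1028 against 827 to 885), erythroid (758 against 510.4 to 566) and dendritic and plasmacytoid cell markers (1696 against 1228 to 1315). Single genes set apart in replicate 5 were Irgc1 (122 against 90.1 to 98.2), Naip5 (31.4 against 22.2 to 23.1), Tnfrsf14 (1236 against 1098 to 1129.5), Disc1 (224 against 126 to 144), Kmo (35.9 against 20.6 to 23.8), Il4 (86.8 against 54.6 to 59.98) and Tns4 (88.5 against 49.96 to 58.4).

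The other 5 lay in other arrays. Replicate 3 was highest for Ifi214 (1592 against 1252 to 1287) and Eif2ak2 (212 against 166 to 171). Replicate 1 was lowest for Entpd4 (995 against 1109 to 1126), replicate 2 lowest for Trav12-2 (98.5 against 168 to 208), and replicate 4 highest for Asns (63.96 against 50.1 to 53.7). In Ifi214, Eif2ak2, Entpd4, Trav12-2, Asns, Irgc1, Naip5, Tnfrsf14 and Tns4 the BTBR arrays lay outside the range of all 5 C57BL/6J arrays.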

How the results depend on the processing

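The number of probe sets called (3737) fell to 722 with the 7 arrays fitted alone, 1939 with array weights and 424 when each BTBR array had also to pass alone, an alternative chosen after seeing the data. Both BTBR arrays had the same array weight (0.467), as the arrays of a pair must. Array weights therefore cannot lower the part of BTBR replicate 2 against replicate 1. Leaving out 1 array gave 486 (without BTBR replicate 2) to 4636 (without BTBR replicate 1). Higher calls (972) became 2148 after quantile normalization, 179 in the 7 arrays and 388 with weights, and ranged from 146 to 1709 with 1 array left out. Lower calls (2765) became 543 and 1551 in the latter fits, and ranged from 340 to 3117. Calls of at least 2-fold (312) became 189 with an offset of 32, and ranged from 155 to 910 with 1 array left out. With each array centred on its median, 2782 were called, 740 in the 7 arrays and 316 to 3637 with 1 array left out. The BTBR strain mean (32) gave 13 to 2984 with 1 BTBR array left out. The C57BL/6J mean (2) gave 1 without the dimmest 40% of probe sets, and 3 with centring, with quantile normalization or without the strains JF1/Ms, MSM/Ms, PWD/PHJ and CAST/EiJ. List genes called (212) became 63 in the 7 arrays, 117 with weights, 51 with each BTBR array alone, and 56 to 251 with 1 array left out. The replicate block left 3735 calls (1386 higher); replicate numbers did not pair the samples (correlations of deviations 0.08 and 0.03).

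Of 105 genes examined singly, 94 were called; 77 of these kept their direction and call under every setting run, and none reversed. Of the 94, 80 were replicate-consistent, which already requires the call with either BTBR array left out. Many were also named for their large differences, so these counts are not independent support. With quantile normalization none of the 94 was lost, and with centring Insr, Psmb9 and Tap1 were. The cause of these changes was not tested.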
